A study of Mus musculus with 8 samples.

Results

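The genes described here belong to families that the mouse embryo transcribes in a burst at the 2-cell stage, followed in embryos that had already reached the late morula. Members were genes of the deposited table whose symbol begins with Zscan4, Tdpoz, Usp17l, Obox, Tcstv or Pramef, together with single genes of the same programme, and each had to have a value above 0 in at least 2 libraries. Of 19058 genes in the table, 54 matched by symbol and 48 met the value rule. They comprised 19 Obox, 6 Pramef, 5 Tdpoz, 5 Usp17l, 4 Zscan4 and 1 Tcstv gene, and 8 single genes: Arg2, Dppa3, Duxf3, Gm5662, Gm8300, Sp110, Tmem92 and Zfp352. By annotation, 35 members are protein coding and 13 are unprocessed pseudogenes, and 28 of the 48 lie on chromosome 7.

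Zygotes received small interfering RNA (siRNA) against both Rbbp4 and Rbbp7 (double knockdown), against Rbbp4 alone, against Rbbp7 alone, or a non-specific siRNA (control), and polyadenylated RNA of whole late morulae was sequenced 78 h after fertilization. Each of the 4 groups has 2 libraries; the labels give neither the mouse strain nor the number of embryos in a library. Nothing in them shows that paired libraries were made from different pools of embryos, so the spread behind each p-value may be technical. The knockdown acts on every cell of the embryo from the zygote on, and maternal protein present before injection is not removed by it.

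In mouse, zygotic transcription begins in earnest at the 2-cell stage, when the transcription factor DUX and the OBOX homeobox factors act on genes and on the endogenous retrovirus MERVL. The programme is silenced again within about a day by chromatin regulators such as TRIM28, SETDB1 and the chromatin assembly factor CAF-1, and in embryonic stem cells losing such repressors brings rare cells back to a 2-cell-like state marked by ZSCAN4. RBBP4 and RBBP7 are closely related histone-binding proteins; RBBP4 is the small subunit of CAF-1, and both occur in histone deacetylase and polycomb complexes.

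Promoter sequences are shown for some of the members described below. RefSeq promoters on GRCm38.p6, from 250 bases before the start to 50 after it, were found for 17 of the 48 members, 18 promoters in all. Zscan4c, Zscan4d and Zscan4f lie on chromosome 7. Their promoters were compared over 120 bases placed around the longest stretch identical in all 3, of 50 bases. There, Zscan4d differed from Zscan4c at 4 positions and Zscan4f at 1. The windows begin 235, 246 and 212 bases before the start of Zscan4c, Zscan4d and Zscan4f. They were chosen for likeness, so they do not show how alike the whole promoters are. The stretches are given 5′ to 3′ on the gene's strand, with capitals at each base that differs from Zscan4c, and cover chr7:11005510-11005629 (+ strand), chr7:11166275-11166394 (− strand) and chr7:11397703-11397822 (+ strand).
Zscan4c: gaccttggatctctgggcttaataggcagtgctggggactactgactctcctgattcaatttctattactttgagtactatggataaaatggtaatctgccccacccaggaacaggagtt
Zscan4d: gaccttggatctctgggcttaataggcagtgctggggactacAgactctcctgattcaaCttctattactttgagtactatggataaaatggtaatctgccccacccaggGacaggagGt
Zscan4f: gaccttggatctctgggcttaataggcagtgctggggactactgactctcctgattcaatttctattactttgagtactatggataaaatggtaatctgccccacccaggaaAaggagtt

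The OBOX-like letters TAATCC, searched on both strands, were in 5 of the 18 member promoters, those of Obox3, Tdpoz1 and Zfp352 and both of Sp110, and in 7.06% of all promoters of the same length. Zfp352 stood out in holding 9 copies within 225 bases, at chr4:90218570-90218794 (+ strand). Sp110 (chr1:85603941-85604060, − strand) and Tdpoz1 (chr3:93676312-93676431, − strand) are shown beside it, with 2 copies and 1 copy in the stretches given. The Obox3 stretch and the other Sp110 stretch (chr1:85598886-85599005, − strand), each with 1 copy, are not shown. Capitals mark TAATCC or its reverse complement. A match is a description of these letters and no evidence of binding.
Zfp352: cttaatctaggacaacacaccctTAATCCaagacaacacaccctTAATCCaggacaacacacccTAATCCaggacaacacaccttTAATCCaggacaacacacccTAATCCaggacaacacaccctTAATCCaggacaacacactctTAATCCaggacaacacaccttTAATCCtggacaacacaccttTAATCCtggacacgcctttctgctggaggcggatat
Sp110: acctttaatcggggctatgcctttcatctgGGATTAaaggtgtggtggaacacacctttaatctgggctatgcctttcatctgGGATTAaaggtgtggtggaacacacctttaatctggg
Tdpoz1: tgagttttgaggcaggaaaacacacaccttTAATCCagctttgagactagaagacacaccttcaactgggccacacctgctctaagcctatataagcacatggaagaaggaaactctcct

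Values are the authors' normalized abundances, which are scaled between libraries but not for gene length. Totals ran from 11334107 to 12011829, and dividing them by the likely worth of 1 read, judged from the most repeated values, gives a rough depth of 9120000 to 14900000 reads, so values below about 10 rest on few reads. Both targets were low where they were targeted. Rbbp4 had 348 and 433 in the double and 402 and 343 in the Rbbp4 knockdown, against 5300.1 and 4710.0 in the control, and Rbbp7 had 327 and 266 in the double and 298 and 293 in the Rbbp7 knockdown, against 8399 and 7205 in the control. Genes were tested where the mean over the 8 libraries was at least 10, which 12565 genes and 25 of the 48 members met: 6 Pramef, 5 Tdpoz, 3 Obox, 2 Usp17l, 1 Zscan4, 1 Tcstv and 7 single genes. A gene was called at an adjusted p below 0.05 in limma with Benjamini-Hochberg adjustment over all tested genes, and every adjusted p below is of that kind. Changes are differences of log2(value + 1) ± the standard error of the fit.

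The members did not sit at one level in the late morula. Per kilobase of exon, averaged over the 8 libraries, Dppa3, which protects the maternal genome from loss of DNA methylation in the zygote, was highest at 10396. Obox6, a homeobox gene, followed at 856, then Sp110, a nuclear body protein, at 630, Tmem92, a membrane protein, at 518, and Tdpoz2, of a family with TRAF and POZ domains, at 335. Pramef12, of the leucine-rich PRAME family, had 241. The classical 2-cell genes were far lower on this scale, with 7.05 for Zscan4f and 0.244 for Duxf3, the gene that encodes DUX. Duxf3 had 1.05 and 0 in the double, 1.85 and 0.783 in the Rbbp4 and 1.58 and 0 in the Rbbp7 knockdown, against 0 and 0 in the control, all within a few reads of 0.

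The 23 members below the filter reached at most 44.1 in any library. Of these, 12 reached 10 in at least 1 library: Zscan4c, Zscan4d, Usp17la, Usp17ld, Obox5, Obox3-ps2, Obox3-ps4, Obox3-ps5, Obox3-ps6, Obox4-ps12, Obox4-ps27 and Obox4-ps28. The other 11 peaked at 8.65 or less. Zscan4 genes encode SCAN-domain zinc finger proteins linked to telomere maintenance, and Usp17l genes encode deubiquitinating enzymes. For 9 of the 23 the highest library was control replicate 2.

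Near-identical copies limit what a single row means. Of the 48 members, 20 shared at least 50% of their exonic 50-base stretches with other annotated genes (median 45.4%), and 7 shared none: Arg2, Obox8, Pramef12, Pramef20, Pramef8, Obox3-ps7 and Obox4-ps1. Zscan4f shared 86.8%, Gm5662 77.9% and Pramef17 73.5%, the last with 1 gene. Tdpoz2 shared 48.3% with 4 genes and Sp110 36.0% with 75 genes. How reads that fit several copies, or either strand, were counted is not given in the sources used here, so levels of shared members are uncertain and summed family levels are given as well.

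A large difference lay between the control libraries. Zscan4f was listed at 0 to 5.93 across the 6 knockdown libraries, and at 97.1 in control replicate 2 and 0 in control replicate 1. Zscan4c had 0 to 6.34 in the knockdowns, and 44.1 in control replicate 2 and 0 in replicate 1. It shared 85.5% of its 50-base stretches with other annotated genes. Zscan4d had 1.21 to 7.89 in the knockdowns, and 27.1 in control replicate 2 and 11.2 in replicate 1. These 3 were highest in control replicate 2. The fourth Zscan4 member, Zscan4e, had 2.10 and 0 in the double, 7.39 and 0 in the Rbbp4 and 5.52 and 0 in the Rbbp7 knockdown, against 0 and 0 in the control, so its few reads lay in replicate 1 of each knockdown.

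Of the deubiquitinase genes, Usp17la, Usp17lb and Usp17lc were likewise highest in control replicate 2, as was Obox3. Usp17lc had 18.0 and 29.2 in the double, 22.8 and 12.0 in the Rbbp4 and 39.8 and 9.88 in the Rbbp7 knockdown, against 22.9 and 189 in the control. Usp17lb had 9.97 and 19.2 in the double, 0.993 and 8.36 in the Rbbp4 and 16.1 and 6.90 in the Rbbp7 knockdown, against 0 and 79.5 in the control. Obox3, an OBOX homeobox gene of the 2-cell stage, had 16.1 and 1.09 in the double, 5.28 and 4.17 in the Rbbp4 and 15.0 and 7.00 in the Rbbp7 knockdown, against 11.5 and 79.2 in the control. For Usp17lb, Usp17lc and Obox3, 1 control library was above all 7 others and the second lay among or below the knockdowns. Usp17ld and Usp17le had another order. Usp17ld had 8.43 and 2.48 in the double, 7.42 and 0.786 in the Rbbp4 and 16.6 and 6.26 in the Rbbp7 knockdown, against 6.35 and 3.01 in the control, and Usp17le was highest in double knockdown replicate 2, at 8.65, against 2.54 and 0 in the control.

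At least a 2-fold higher value in control replicate 2 than in control replicate 1, on the log2(value + 1) scale, was reached by 11 of the 25 tested members (44%), against 6.36% of all tested genes. These were Zscan4f, Usp17lb, Usp17lc, Obox3, Tdpoz3, Tdpoz5, Pramef6, Pramef25, Tcstv1, Gm8300 and Zfp352. The filter itself favoured this count: Zscan4f, Usp17lb, Obox3 and Pramef6 reached a mean of 10 only through control replicate 2 and averaged 1.92, 8.78, 8.58 and 8.76 over the other 7 libraries. With the filter placed on the mean of the 6 knockdown libraries instead, a choice made after seeing the data, 8 of 22 members (36.4%) reached the 2-fold difference, against 6.37% of all genes so filtered. Pramef25 had 82.2 in replicate 2 and 7.61 in replicate 1, and Tdpoz3 had 107 in replicate 2 and 12.6 in replicate 1. Gm8300 had 107 in replicate 2 and 33.0 in replicate 1, and Zfp352, a zinc finger gene, had 59.8 in replicate 2 and 13.4 in replicate 1. Their knockdown libraries ranged widely too: Zfp352 had 53.8 and 26.8 in the double, 11.6 and 1.51 in the Rbbp4 and 34.3 and 3.01 in the Rbbp7 knockdown. The opposite was true of 1 member, Pramef20 (background 4.97%, and 4.86% with the filter on the knockdown libraries), with 6.01 in replicate 2 and 16.5 in replicate 1. The median difference was 0.84 on the log2 scale over the 25 members and 0.0084 over all tested genes.

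**Figure D1:**
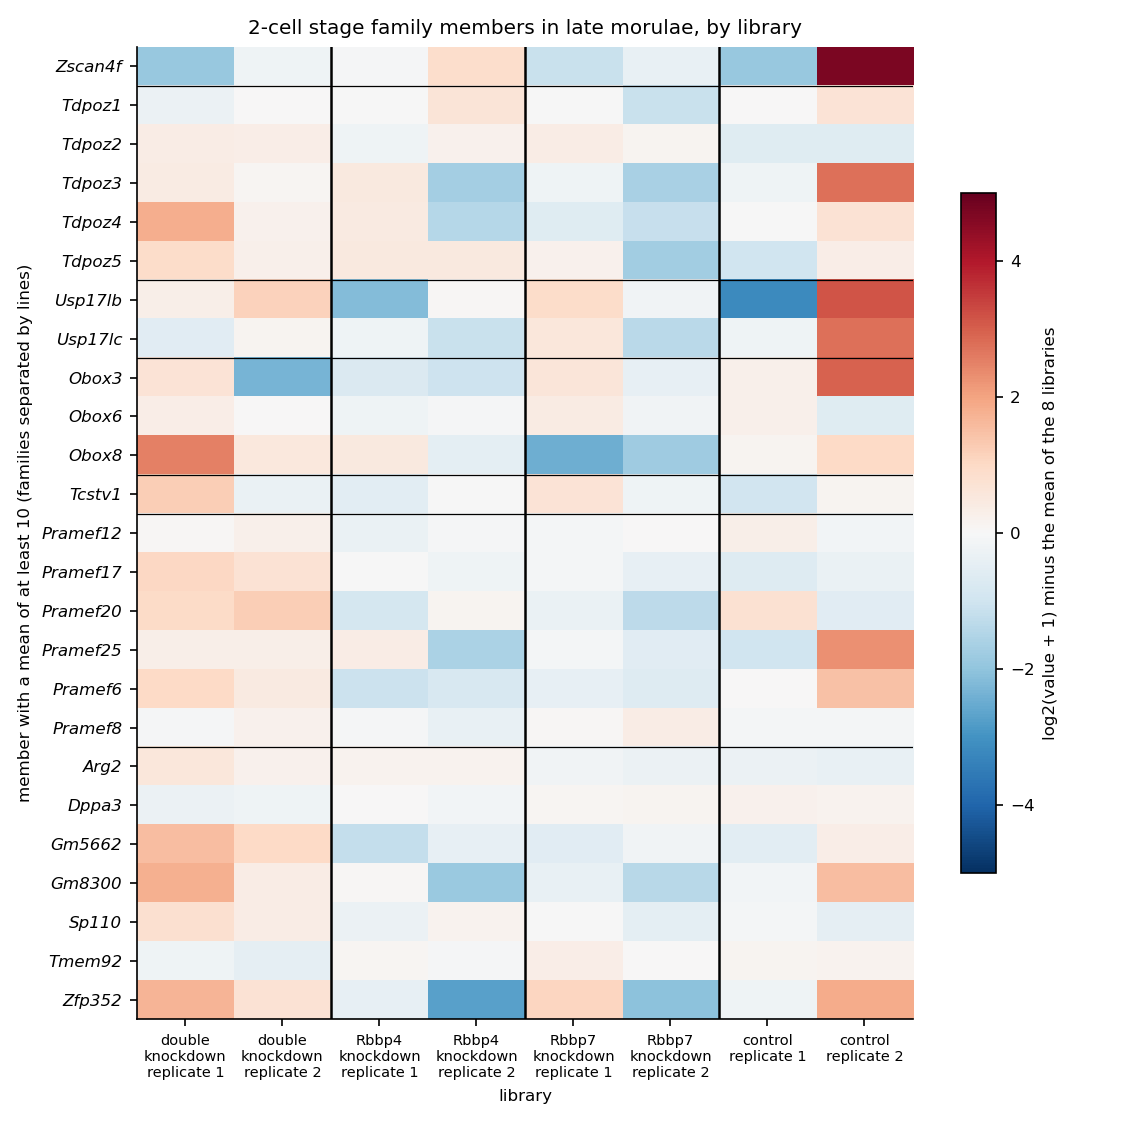
Heat map of the 25 tested members (rows, grouped by family) in the 8 libraries (columns), coloured by log2(value + 1) minus the mean of the 8 libraries, red for higher. Control replicate 2 is the highest library for 9 of the 25 rows and double knockdown replicate 1 for 10.

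Over all 48 members, 18 were highest in control replicate 2 (37.5%) and 12 in double knockdown replicate 1 (25%), against 11.8% and 16.5% of all genes above 0 in at least 2 libraries. Among the 25 tested, these libraries held the highest value for 9 (36%) and 10 (40%), against 12.4% and 16.0% of all tested genes. With the filter on the mean of the other 7 libraries, the control replicate 2 count was 5 of 21 (23.8%, background 12.0%), and double knockdown replicate 1 had 10 of 24 (41.7%, background 15.6%). Other pairs leaned towards replicate 1: a 2-fold excess there was reached by 5 members in the double knockdown (Gm8300, Obox3, Obox8, Tcstv1, Tdpoz4; 20%, background 4.57%), by 5 in the Rbbp4 (20%, background 3.65%) and by 7 in the Rbbp7 knockdown (28%, background 3.91%). Replicate 2 had 1 such member in the double (background 5.09%), 1 in the Rbbp4 (3.29%) and 0 in the Rbbp7 knockdown (3.61%). Control replicate 1 was also the library with the most genes listed at 0, 3937 against 2644 to 3237 elsewhere, and its rough depth was 9410000 reads against 11700000 in control replicate 2. Transcripts stored in the oocyte summed to 14518 in control replicate 2 and 11788 in control replicate 1. The part of depth and of these transcripts in the difference was not tested. In RNA of whole embryos, more cells expressing these genes and more RNA per cell cannot be told apart.

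Summed over a family, the same library stood out for some families only. Zscan4 genes summed to 7.28 and 3.47 in the double, 17.9 and 7.47 in the Rbbp4 and 18.0 and 6.27 in the Rbbp7 knockdown, against 11.2 and 168 in the control. Usp17l genes summed to 39.6 and 64.5 in the double, 33.0 and 26.6 in the Rbbp4 and 73.3 and 26.2 in the Rbbp7 knockdown, against 31.8 and 282 in the control. Obox3 and its 7 pseudogenes summed to 41.2 and 10.8 in the double, 11.04 and 8.10 in the Rbbp4 and 35.7 and 10.1 in the Rbbp7 knockdown, against 37.7 and 203 in the control. For these 3 groups of genes, control replicate 2 was above the other 7 libraries.

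The Pramef, Tdpoz and Obox sums had no gap of that size between the control libraries. Tcstv1, the 1 Tcstv gene, had 45.9 and 15.0 in the double knockdown, against 9.34 and 21.2 in the control. Pramef genes summed to 1178 and 1259.7 in the double, 855 and 890.4 in the Rbbp4 and 952 and 1023 in the Rbbp7 knockdown, against 1079 and 987 in the control, so the double knockdown was highest and the Rbbp4 knockdown lowest. Tdpoz genes summed to 1022 and 777 in the double and 666 and 740.2 in the Rbbp4 knockdown. They summed to 737 and 522 in the Rbbp7 knockdown, against 499 and 765 in the control. The double knockdown alone was above both control libraries, and this rested on Tdpoz2. Without Tdpoz2, the Tdpoz sum in the double knockdown, 541 and 311, overlapped the control, 255 and 524. The Obox sum, 1673 and 1231 in the double, 1052 and 1137 in the Rbbp4 and 1555 and 1025 in the Rbbp7 knockdown against 1448 and 1038 in the control, was mostly Obox6; the double was above the Rbbp4 knockdown, and all other pairs of groups overlapped. Without Obox6, the Obox sum was 269.7 and 84.2 in the double, 76.7 and 45.8 in the Rbbp4 and 56.8 and 25.7 in the Rbbp7 knockdown, against 95.7 and 298 in the control, with control replicate 2 again highest.

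**Figure D2:**
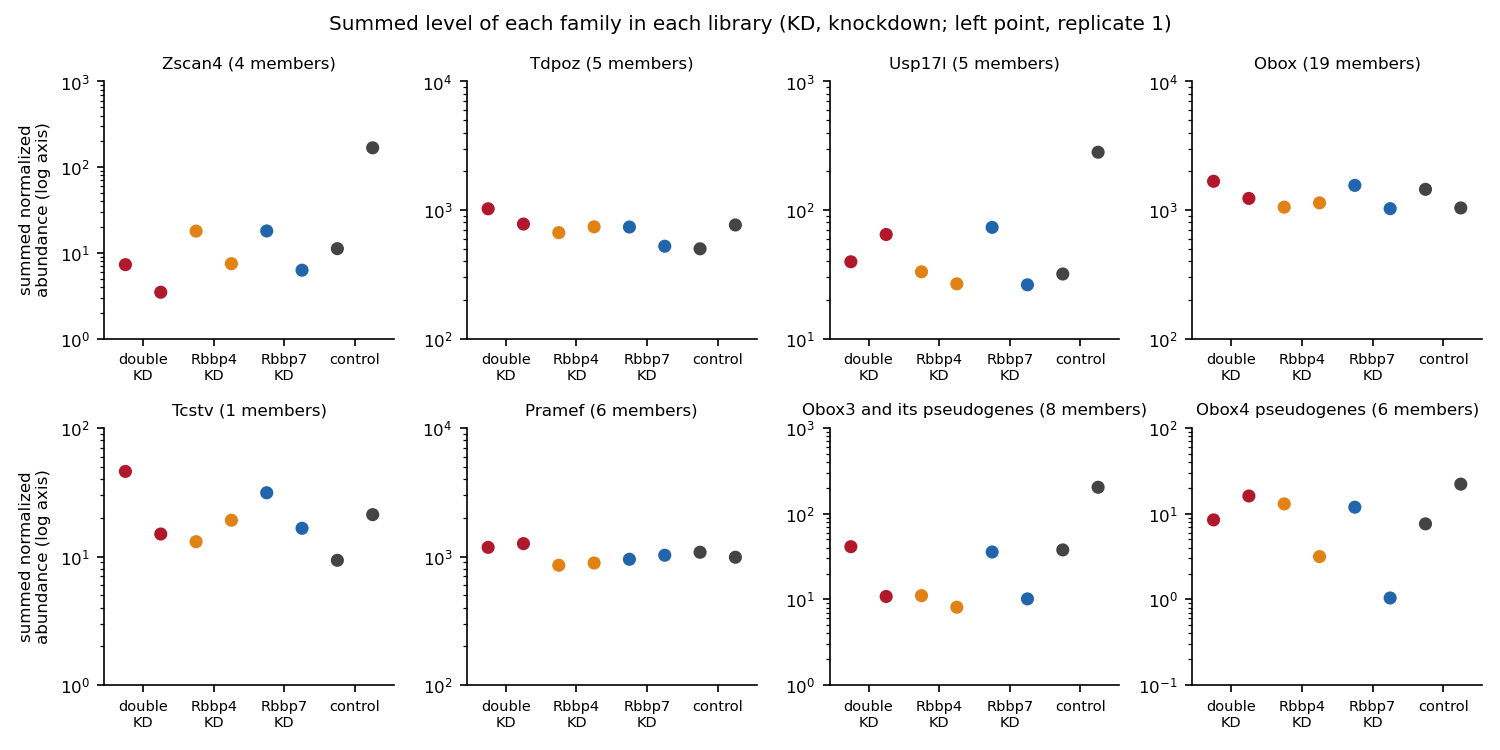
Summed normalized abundance of each family (log axis) in each library, with the double knockdown on the left, the control on the right, and replicate 1 as the left point of each pair. The Zscan4, Usp17l and Obox3 panels show 1 control point far above the second, 168 against 11.2 for Zscan4, while the Pramef, Tdpoz and Obox panels show no such gap.

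Against the control, 2 of the 25 tested members were called in the double knockdown, both higher, where 1.15% of all tested genes were called. Pramef17 (ENSMUSG00000078509, chr4:143991119-143994369, − strand, GRCm38) had 266 and 216 in the double, 127 and 112 in the Rbbp4 and 120.5 and 97.0 in the Rbbp7 knockdown, against 83.8 and 104 in the control. Both double knockdown libraries were above all 6 others. The mean rose to 241 ± 34.8 in the double knockdown, against 94.0 ± 14.5 in the control (SD, n = 2 each), a log2 change of 1.35 ± 0.26 (adjusted p = 0.0455) in limma. Its single knockdown changes were 0.35 ± 0.26 (adjusted p = 0.895) for Rbbp4 and 0.21 ± 0.26 (adjusted p = 0.834) for Rbbp7.

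Tdpoz2 (ENSMUSG00000103362, chr3:93651542-93652686, − strand, GRCm38) showed another pattern. It had 481 and 466 in the double, 322 and 429.5 in the Rbbp4 and 480.3 and 406 in the Rbbp7 knockdown, against 244 and 241 in the control. It was the 1 tested member for which all 6 knockdown libraries were above both control libraries, where 4.89% of all tested genes were. The mean rose to 473 ± 10.5 in the double knockdown, against 242 ± 2.41 in the control (SD, n = 2 each), a change of 0.96 ± 0.19 (adjusted p = 0.0496) in limma. The single knockdowns did not pass, with 0.86 ± 0.19 (adjusted p = 0.203) for Rbbp7 and 0.62 ± 0.19 (adjusted p = 0.733) for Rbbp4. Both calls lie close to the threshold. Leaving out any 1 of the 8 libraries ended them, with limma adjusted p of 0.0693 to 0.182 for Pramef17 and 0.0750 to 0.162 for Tdpoz2, while the changes stayed at 1.19 to 1.51 and 0.94 to 0.99.

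Before adjustment, 7 of the 25 members had p below 0.05 in the double knockdown, 5 higher and 2 lower, where 17.3% of all tested genes did. Besides Pramef17 and Tdpoz2 these were Gm5662, Sp110, Arg2, Dppa3 and Tmem92. Gm5662, a predicted gene, had 486 and 335 in the double, 73.3 and 126 in the Rbbp4 and 114 and 148 in the Rbbp7 knockdown, against 117 and 211 in the control, a change of 1.36 ± 0.37 (adjusted p = 0.108) in limma. Both double knockdown libraries were above all others. Sp110 had 7182 and 5258 in the double and 3319 and 4666 in the Rbbp4 knockdown. It had 3982 and 2879 in the Rbbp7 knockdown, against 3866 and 3005 in the control. Its double knockdown change was 0.85 ± 0.23 (adjusted p = 0.109). Sp110 too was highest in both double knockdown libraries.

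Arg2, the mitochondrial arginase, had 93.7 and 72.9 in the double, 69.9 and 69.9 in the Rbbp4 and 54.7 and 50.01 in the Rbbp7 knockdown, against 50.7 and 48.1 in the control, with 0.73 ± 0.31 (adjusted p = 0.272). Pramef20 had 18.96 and 23.5 in the double, 4.66 and 10.2 in the Rbbp4 and 7.14 and 3.13 in the Rbbp7 knockdown, against 16.5 and 6.01 in the control, with 0.997 ± 0.83 (adjusted p = 0.578). Together with Pramef17, Gm5662 and Sp110, these were the 5 members of 25 (20%) for which both double knockdown libraries were above all 6 other libraries, against a background of 8.87%. Pramef20 averaged under 10 outside the double knockdown; with the filter on the other 6 libraries, 4 of 24 members (16.7%, background 8.40%) were above.

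Dppa3 and Tmem92 lay on the other side. Dppa3 had 7523 and 7936 in the double, 9290.2 and 8409 in the Rbbp4 and 9965 and 10159 in the Rbbp7 knockdown, against 10548 and 10354 in the control, with −0.44 ± 0.10 (adjusted p = 0.0860). Tmem92 had 969 and 809 in the double, 1208 and 1066 in the Rbbp4 and 1397 and 1134 in the Rbbp7 knockdown, against 1226 and 1258 in the control, with −0.49 ± 0.15 (adjusted p = 0.149). For both, the double knockdown libraries were below the other 6, as for 8.04% of all tested genes, and neither passed the test. Dppa3 was also the 1 member below both control libraries in all 6 knockdown libraries (background 5.20%).

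**Figure D3:**
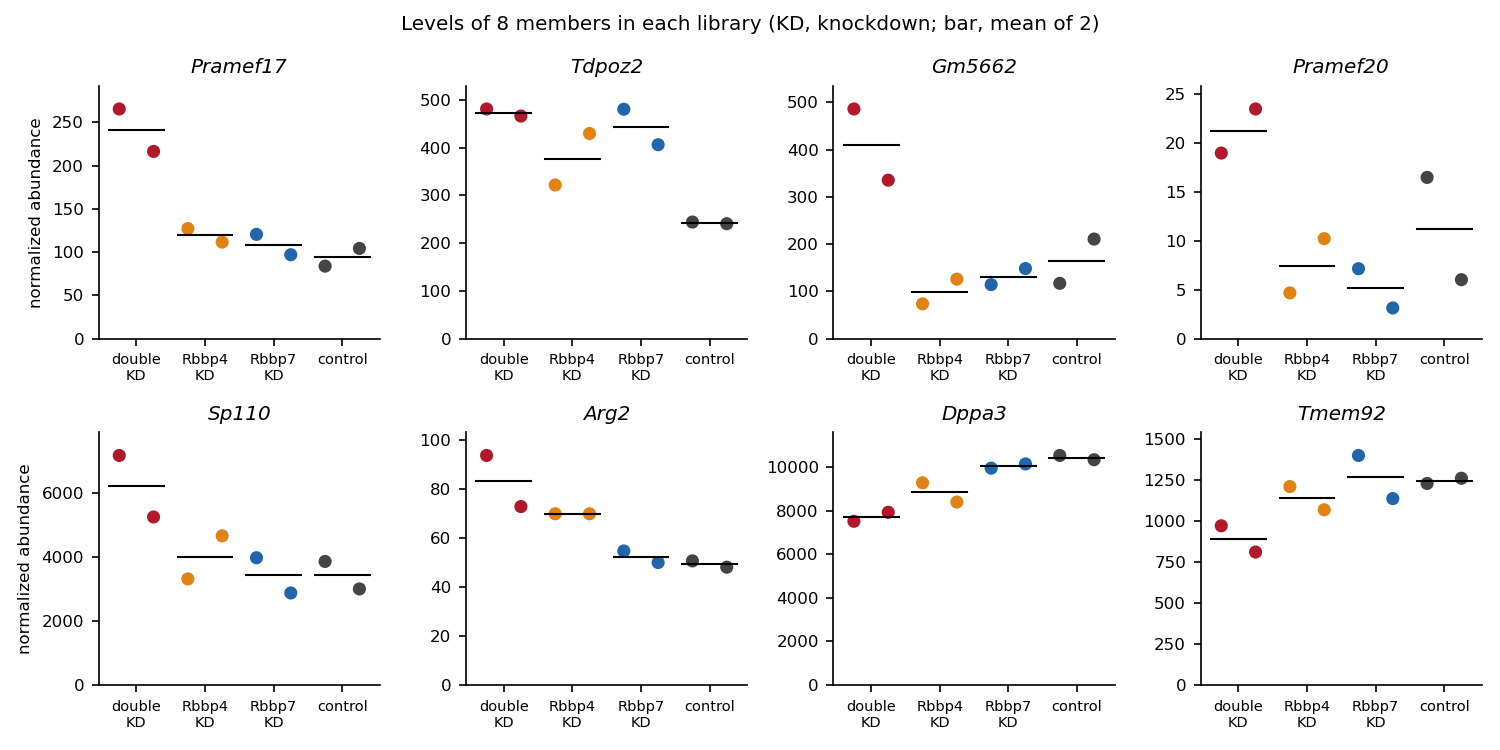
Normalized abundance (linear axis from 0) of 8 members in each library, with points for libraries and bars for the mean of 2, from the double knockdown at the left to the control at the right. Pramef17 is near 241 in the double knockdown and 94.0 in the control, Tdpoz2 is lowest in the control, and Dppa3 and Tmem92 are lowest in the double knockdown.

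Counted over all 25, the double knockdown was positive for 16 members and negative for 9, with a median change of 0.40 against −0.00056 over all tested genes. Both its libraries were above both control libraries for 7 members (28%, background 21.9%; 6 of 24 or 25%, background 21.2%, with the filter on the other 6 libraries) and below them for 2 (8%, background 22.2%). The seventh member above was Pramef8, with 213 and 254 in the double knockdown and 204 and 207 in the control, and 0.18 ± 0.22 (adjusted p = 0.725). The other 16 members overlapped the control. Obox8 had 201 and 49.3 in the double knockdown and 37.9 and 70.2 in the control. Tdpoz4 had 315 and 104 in the double knockdown and 88.5 and 146 in the control, and Tdpoz1 had 103 and 128 in the double knockdown and 127 and 202 in the control. For Tcstv1, 45.9 and 15.0 in the double knockdown stood against 9.34 and 21.2 in the control. Double knockdown replicate 1 was the high library for Obox8, Tdpoz4 and Tcstv1. Pramef6, at 18.98 and 12.6 in the double knockdown and 9.26 and 26.5 in the control, lay between its control libraries. Obox6 and Pramef12, at high levels throughout, had changes of 0.34 ± 0.28 (adjusted p = 0.568) and 0.07 ± 0.18 (adjusted p = 0.880).

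Both single knockdowns called 0 of the 25 members in limma, where 0.0239% of all tested genes were called in each. Before adjustment, p was below 0.05 for 2 members under Rbbp4 knockdown (background 5.86%) and for 3 under Rbbp7 knockdown (background 9.55%). The balance was towards negative changes, 18 of 25 with a median of −0.47 for Rbbp4 and 17 of 25 with −0.41 for Rbbp7. Over all tested genes the medians were 0.0049 and 0.0095. The filter favoured this balance: Zscan4f, Usp17lb, Obox3 and Pramef6 reached a mean of 10 only through control replicate 2. All were negative under Rbbp4 knockdown, and all but Usp17lb under Rbbp7 knockdown. With a minimum mean of 50, which 15 members met, the medians were −0.10 and −0.055. Both Rbbp4 knockdown libraries were below both control libraries for 6 members (24%, background 17.4%): Obox3, Usp17lc, Pramef6, Zfp352, Dppa3 and Tmem92. They were above for 4, Arg2, Pramef17, Tdpoz2 and Tdpoz5 (16%, background 18.0%).

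In the Rbbp7 knockdown 6 members were below both control libraries (24%, background 19.7%), Gm8300, Obox8, Pramef6, Tdpoz1, Tdpoz4 and Dppa3, and 2 were above (8%, background 19.9%), Pramef8 and Tdpoz2. Of the members below the control in either single knockdown, Obox3 and Pramef6 passed the filter only through the control libraries. Obox8 had the change of largest size among the 25, with 5.56 and 9.37 in the Rbbp7 knockdown, against 37.9 and 70.2 in the control, −2.67 ± 0.70 (adjusted p = 0.252) in limma. Obox8 is among the members that share no 50-base stretch with another annotated gene.

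The negative balance varied in size with the libraries used. Against control replicate 2 alone, the median over the 25 members was −0.40 for the Rbbp4 and −1.08 for the Rbbp7 knockdown; against control replicate 1 alone it was −0.15 for the Rbbp4 and −0.14 for the Rbbp7 knockdown. The knockdown libraries mattered too. The Rbbp7 median was −1.23 without Rbbp7 knockdown replicate 1 and −0.19 without replicate 2, and the Rbbp4 median was −0.26 without either Rbbp4 knockdown library. For the double knockdown it was 0.16 against control replicate 2, with 13 members positive, and 0.69 against control replicate 1, with 19 positive. Double knockdown replicate 1 mattered as well: without it the median against the control was −0.065. In the double knockdown, 11 members were positive against either control library: Pramef17, Tdpoz2, Gm5662, Sp110, Arg2, Pramef20, Pramef8, Tdpoz4, Tdpoz5, Tcstv1 and Obox8. Dppa3, Tmem92, Obox3 and Tdpoz1 were negative against either. Obox3 passed the filter only through control replicate 2. Of all tested genes, 50.4% were positive against control replicate 1 and 48.1% against control replicate 2. The share on the same side of both was not computed, so these counts have no background.

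**Figure D4:**
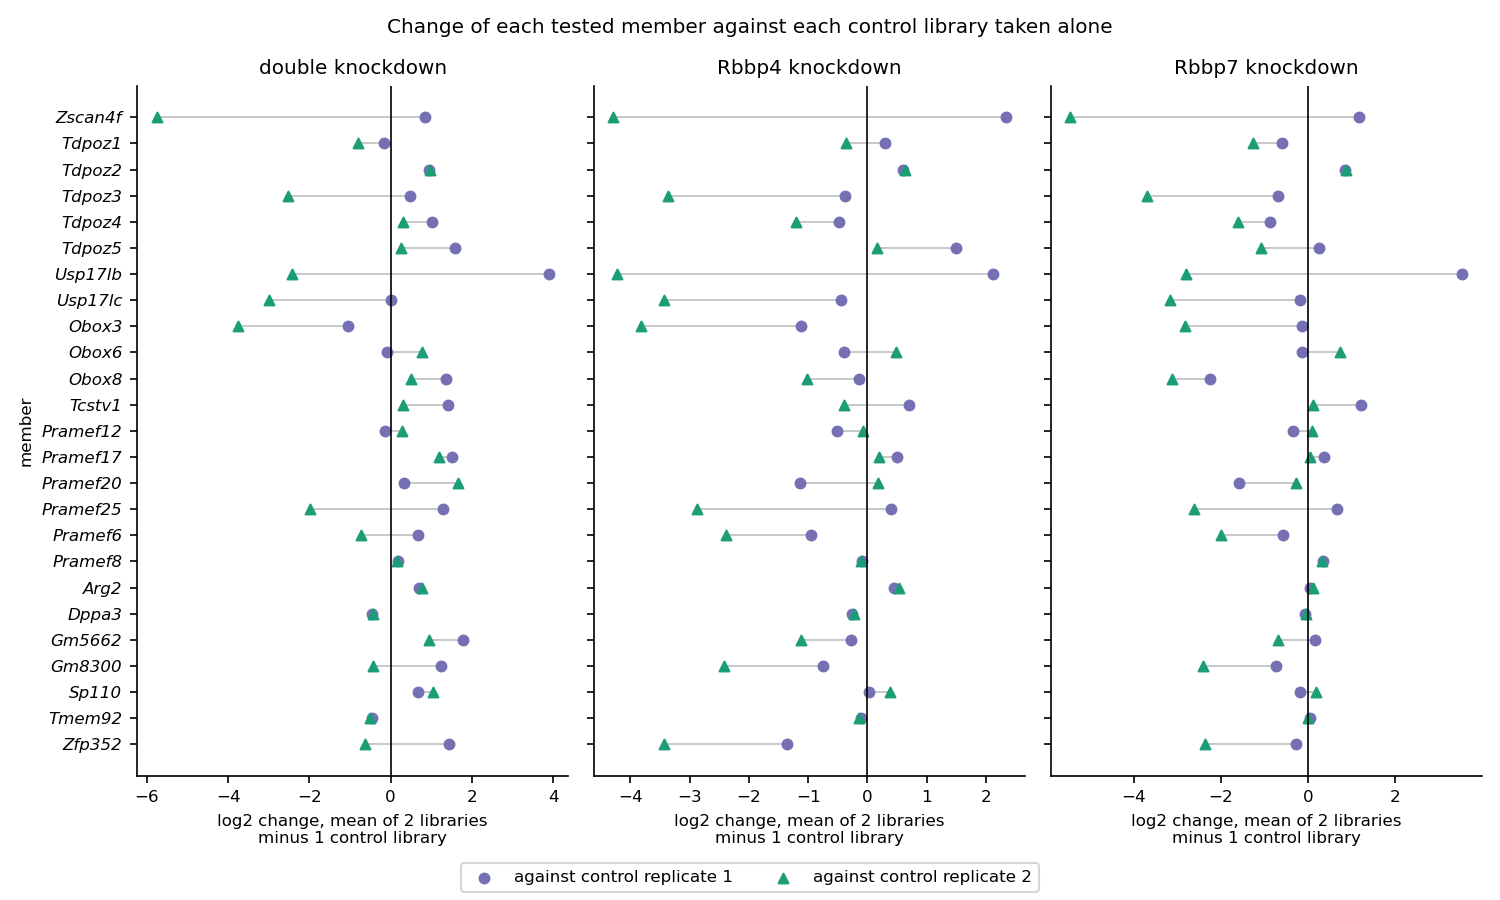
Log2 change of each tested member, as the mean of 2 knockdown libraries minus 1 control library, with circles against control replicate 1 and triangles against control replicate 2, for the double, Rbbp4 and Rbbp7 knockdown from left to right. The lines joining the symbols cross 0 for several members, Zscan4f and Usp17lb among them, while both symbols of Pramef17 and Tdpoz2 lie above 0 in every panel.

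The double knockdown was also set against each single knockdown, which leaves the control libraries out of the means. No member passed in limma: 0 of 25 against the Rbbp4 knockdown, where 0.0159% of all tested genes were called, and 0 of 25 against the Rbbp7 knockdown, where 0.358% were. Before adjustment, p was below 0.05 for 7 members against Rbbp4 (background 9.57%) and 9 against Rbbp7 (background 15.0%). Changes were positive for 21 and 20 of the 25, with medians of 0.64 and 0.63, against −0.0033 and −0.014 over all tested genes. Leaving out 1 library gave medians of 0.44 to 0.89 against Rbbp4 and of 0.26 (without Rbbp7 knockdown replicate 2) to 0.99 (without its replicate 1) against Rbbp7.

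Both double knockdown libraries were above both Rbbp4 knockdown libraries for 13 members (52%, background 20.9%), and above both Rbbp7 knockdown libraries for 13 (52%, background 23.1%). With the filter on the 6 libraries outside the double knockdown, these were 12 of 24 (50%, background 20.2%) and 11 of 24 (45.8%, background 22.4%). They were below for 3, Dppa3, Tmem92 and Zscan4f (12%, background 21.5%), and for 2, Dppa3 and Tmem92 (8%, background 23.2%). These comparisons share the double knockdown libraries, so their counts are not independent. Gm5662 had the smallest adjusted p against Rbbp4, with 2.06 ± 0.37 (adjusted p = 0.162), and Obox8 against Rbbp7, with 3.61 ± 0.70 (adjusted p = 0.0690). Pramef17 had 1.003 ± 0.26 (adjusted p = 0.283) against Rbbp4 and 1.14 ± 0.26 (adjusted p = 0.0944) against Rbbp7, and Zfp352 2.80 ± 1.19 (adjusted p = 0.513) and 1.71 ± 1.19 (adjusted p = 0.558).

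Whether the double knockdown differed from the sum of both single changes was tested as an interaction. Limma called 0 of the 25 members, where 0.00796% of all tested genes were called, and 6 had p below 0.05 before adjustment (background 6.49%). The interaction was positive for 21 of 25, with a median of 0.80 against −0.017 over all tested genes. The median was 0.44 without control replicate 2 and 1.75 without control replicate 1, 1.48 without Rbbp7 knockdown replicate 1 and 0.50 without Rbbp4 knockdown replicate 1. It was 4.19 ± 0.98 (adjusted p = 0.593) for Obox8, 2.33 ± 0.52 (adjusted p = 0.593) for Gm5662 and 4.11 ± 1.69 (adjusted p = 0.760) for Zfp352, but −0.52 ± 0.26 (adjusted p = 0.782) for Tdpoz2. By construction the control enters this contrast with a positive sign, so a high control library raises it. Filtering therefore favoured positive values: Zscan4f, Usp17lb, Obox3 and Pramef6 passed the filter only through control replicate 2. Their interactions were 0.67, 1.41, 1.55 and 2.93, and Pramef6 was among the 6 with p below 0.05 before adjustment in limma. With a minimum mean of 50, which 15 members met, the median was 0.49. No count with a filter that leaves out the control is given for this contrast.

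Genes known to control the 2-cell programme were read beside the families. Of 34 tested repressors, 2 fell in the double knockdown, 0 rose, 26 were negative, and the median was −0.079. Trim28, the corepressor recruited by zinc finger proteins to retroviral repeats, had 7157 and 6402 in the double, 7978 and 7708 in the Rbbp4 and 11056 and 10537 in the Rbbp7 knockdown, against 10829 and 10007 in the control, with −0.62 ± 0.11 (adjusted p = 0.0341). It was also lower in the double than in the Rbbp7 knockdown, with −0.67 ± 0.11 (adjusted p = 0.0453). Max, the partner of MYC and of MGA in a polycomb complex, had 708 and 730.3 in the double, 665 and 691 in the Rbbp4 and 1029.5 and 1088 in the Rbbp7 knockdown, against 1256 and 1249 in the control, with −0.80 ± 0.12 (adjusted p = 0.0243). Leaving out any 1 library ended the call of Trim28 against the control (adjusted p 0.0593 to 0.122) and against the Rbbp7 knockdown (0.0514 to 0.222), and leaving out either double knockdown, either Rbbp4 knockdown or either control library ended that of Max (0.0559 to 0.0916).

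The other repressors named for this purpose did not pass. In the double knockdown against the control, the CAF-1 subunits Chaf1a and Chaf1b had −0.05 ± 0.13 (adjusted p = 0.879) and −0.29 ± 0.20 (adjusted p = 0.483). The histone methyltransferases Setdb1 and Ehmt2 had −0.30 ± 0.15 (adjusted p = 0.343) and −0.26 ± 0.15 (adjusted p = 0.404), the demethylase Kdm1a 0.08 ± 0.11 (adjusted p = 0.780) and the deacetylase Hdac1 −0.0023 ± 0.11 (adjusted p = 0.996). Pcgf6 and Mga, of the same polycomb complex as Max, had −0.05 ± 0.14 (adjusted p = 0.880) and −0.03 ± 0.14 (adjusted p = 0.933). Of 12 tested activators 0 were called by limma in the double knockdown, and the median was −0.092. Before adjustment, 1 had p below 0.05 (background 17.3%). Dppa2, Dppa4 and Nelfa, which act upstream of Dux, had −0.26 ± 0.12 (adjusted p = 0.298), 0.02 ± 0.12 (adjusted p = 0.953) and −0.25 ± 0.14 (adjusted p = 0.411).

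Markers of stage and of other cells moved with the groups in part. Of 25 tested trophectoderm genes, 1 rose and 5 fell in the double knockdown, where 1.15% of all tested genes were called. Changes there were negative for 20, with a median of −0.20. Before adjustment, limma p was below 0.05 for 13 in the double (background 17.3%) and 12 in the Rbbp7 knockdown (background 9.55%). Their summed level was 71303 to 76687 in the double and 85714 to 88392 in the Rbbp4 knockdown. It was 67506 to 68444 in the Rbbp7 knockdown, against 87676 to 93280 in the control. Plet1 fell by 1.83 on the log2 scale (limma adjusted p = 0.0114), Id2 by 1.62, Atp1b1 by 1.13, Krt18 by 1.08 and Fabp3 by 0.97, and Krt19 rose by 3.43. In the Rbbp7 knockdown 1 fell, Fabp3 (adjusted p = 0.0176), and the median was −0.53; that call was lost without either Rbbp4 knockdown library, Rbbp7 knockdown replicate 2 or control replicate 1 (0.0704 to 0.144). Leaving out control replicate 1, double knockdown replicate 2 or either Rbbp4 knockdown library ended each of these calls in the double knockdown (adjusted p 0.0511 to 0.115) except that of Plet1, which held without any single library; Krt19, Krt18 and Fabp3 were lost without some others as well.

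Of 13 tested maternal transcripts 1 rose in the double knockdown, Uchl1, with 753 and 718 in the double, 188 and 192 in the Rbbp4 and 325 and 518 in the Rbbp7 knockdown, against 159 and 290.0 in the control, and 1.77 ± 0.30 (adjusted p = 0.0332). Leaving out control replicate 1, either double or either Rbbp4 knockdown library ended that call (limma adjusted p 0.0761 to 0.134), with a change of 1.34 without control replicate 1. Before adjustment, 3 of the 13 maternal transcripts had limma p below 0.05 in the double knockdown (background 17.3%). The maternal sum covered 30 of 32 genes with values, 2 of them averaging under 1 (Oosp3 and Zar1l). It was 12564 to 15099 in the double and 11605 to 12476 in the Rbbp4 knockdown. In the Rbbp7 knockdown it was 11856 to 12041, against 11788 to 14518 in the control. Markers of cumulus and granulosa cells (9 of 16 with values, 4 of these averaging under 1, Cyp11a1 and Inha among them) summed to 1572 and 1939 in the double, 1822 and 1795 in the Rbbp4 and 2042 and 2438 in the Rbbp7 knockdown, against 1462 and 1769 in the control. Sperm markers (10 of 14 with values, 7 under 1, Prm1 and Prm2 among them) summed to 1304 and 1381 in the double and 1157 and 1200.1 in the Rbbp4 knockdown. They summed to 1847 and 1663 in the Rbbp7 knockdown, against 1821 and 1474 in the control. Only 1 sperm marker averaged at least 10, so nearly all of this sum came from 1 gene. Blood markers (8 of 14 with values, 1 under 1, Alas2) summed to 381 and 367 in the double, 232 and 353 in the Rbbp4 and 277 and 149 in the Rbbp7 knockdown, against 417 and 231 in the control. Of these 3 lists, 3, 1 and 2 genes were tested and 0 were called by limma in the double knockdown against the control, with 1, 0 and 0 at p below 0.05 before adjustment. The part of embryo stage and of stored maternal RNA in the differences between groups was not tested.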

How the data were processed

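The 8 libraries were grouped by the treatment in their titles, and no column of other samples was present (0 columns). Deposited values are the authors' signal, a per-gene abundance scaled between libraries, as the table's name states. The submitters' processing notes name Trimmomatic, HISAT2, featureCounts, DESeq2 and GRCm38; their versions and settings, the annotation release and the use of strand are not given in the sources used. Whole reads could not be recovered, so no count model was fitted.

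Of 19058 identifiers, 18942 matched a symbol and 116 did not. Values were analysed as log2(value + 1), which understates changes of low genes. The fit covered 12565 genes averaging at least 10, with limma 3.58.1 in R 4.3.3 (4 group means, variance trend, 4 residual and 5.18 prior degrees of freedom), in 6 two-sided comparisons, each adjusted with the Benjamini-Hochberg method and called below 0.05; the code was tested on simulated data. Replicate numbers did not pair the libraries (correlations of deviations −0.022 to 0.051). Alternatives varied the pseudocount, filter, scaling (TMM, written out for these values, and quantile), variance weights, block and libraries used; a filter on libraries outside the one described was added after seeing the data. Shared 50-base stretches were counted among GENCODE vM21 transcripts.

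Members and lists (other 2-cell genes, activators, repressors, maternal, trophectoderm, cumulus, sperm and blood markers) were chosen with earlier results of these data known. Every member averaging at least 10, or reaching 10 in a library, is named; other genes are named where a list gene was called, or for their known role in this programme.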

Additional observations from a re-analysis of the deposited data

How the results depend on the processing

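In the double knockdown against the control, 2 members were called by limma (Pramef17 and Tdpoz2), and 2 with pseudocounts of 5 or 0.5 and with a minimum mean of 50. TMM scaling left 1 (Pramef17), and 0 were called with no filter, quantile normalization, group variance weights or a fit of only the groups compared. The fit with the replicate number as a block called 0, with adjusted p of 0.0618 for Pramef17 and 0.0691 for Tdpoz2, and leaving out each library in turn gave 0 to 0. Fewer libraries, or fewer degrees of freedom, enter the block, groups-only and leave-one-out fits by construction; for the others the cause was not tested. Over all 17 alternatives, adjusted p ran from 0.0404 to 0.182 for Pramef17 and from 0.0401 to 0.163 for Tdpoz2. In the other 5 comparisons 0 members were called under every alternative run. Genes called in the double knockdown among all tested numbered 144, and 2 to 196 under alternatives; among both single knockdowns these were 3 each, and 2 to 35 for Rbbp4 and 1 to 38 for Rbbp7, and the double knockdown against Rbbp4, against Rbbp7 and the interaction had 2, 45 and 1, with 2 to 13, 1 to 78 and 1 to 21. The median over members was −0.065 to 0.69 in the double knockdown against the control, and 0.44 to 1.75 for the interaction. The changes of Pramef17 and Tdpoz2, the 2 called members, kept their sign in all 17 alternatives, though most of these ended the calls. Over the 415 values of all tested members in this comparison, 17 had the other sign, all from uncalled members.

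The log2 ratio of summed levels, double knockdown over control, depended on the member with the highest mean: without it, the Tdpoz ratio was 0.13 (0.51 with it), the Obox ratio −0.16 (0.22 with it) and the Pramef ratio 0.51 (0.24 with it). The Zscan4 ratio was −3.28 (−4.06 with it) and the Usp17l ratio −0.84 (−1.59 with it), moves within their wide spread between libraries. With the filter on libraries other than those counted as higher, added after seeing the data, tested members highest in control replicate 2 numbered 5, against 9; those at least 2-fold higher there than in control replicate 1 numbered 8, against 11. With 2 libraries a group and few reads behind low members, changes of the Zscan4, Usp17l and Obox3 genes were not detectable within the control's spread: the standard error of Zscan4f was 1.99 on the log2 scale.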

Other observations

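Other genes of the 2-cell programme, outside the families above, varied in several ways. Of 32 tested, 1 rose in the double knockdown against the control, where 1.15% of all tested genes were called. Before adjustment, 10 had limma p below 0.05 (background 17.3%). Changes were positive for 20 and the median was 0.16. Ddit4l, which dampens mTOR signalling, had 751 and 678 in the double, 568 and 519 in the Rbbp4 and 449.5 and 347 in the Rbbp7 knockdown, against 283 and 352 in the control, with 1.18 ± 0.18 (adjusted p = 0.0268) in limma. The double knockdown was above all other libraries, the control overlapped the Rbbp7 knockdown, and leaving out either double, either Rbbp4 library or control replicate 1 ended the call (limma adjusted p 0.0632 to 0.118).

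Trim43 genes, a family of tripartite motif genes of the early embryo, were highest in Rbbp7 knockdown replicate 1. Trim43b had 11451 and 8180.0 in the Rbbp7 knockdown, against 5347 and 4970.0 in the control, 0.91 ± 0.17 (adjusted p = 0.161) in limma. Trim43c had 2014 and 1813 in the Rbbp7 knockdown, against 1006 and 938 in the control, 0.98 ± 0.20 (adjusted p = 0.173). Trim43a had 16454 and 12777 in the Rbbp7 knockdown, against 11018 and 10915 in the control, 0.40 ± 0.15 (adjusted p = 0.426). For all 3 both Rbbp7 knockdown libraries were above both control libraries (background 19.9%), and none passed the test. Higher values were not confined to the Rbbp7 knockdown. In the double knockdown, Trim43b had 7237 and 6948 and Trim43c 1377 and 1651, above both control libraries. In the Rbbp4 knockdown, Trim43a had 11832 and 13196, also above both. Trim43a in the double knockdown, and Trim43b and Trim43c in the Rbbp4 knockdown, overlapped the control. These and the genes that follow were picked after their values were seen.

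Between the control libraries, 6 of the 32 genes were at least 2-fold higher in replicate 2 (background 6.36%). In replicate 1, 2 genes were higher by as much (background 4.97%). The median difference was −0.030 on the log2 scale, against 0.0084 over all tested genes. Tmem72, a membrane protein gene, had 8651 to 24373 in the 6 knockdown libraries, and 36710.0 in control replicate 2 and 9835 in control replicate 1. Gm4027 had 156 and 146 in the double knockdown, and 152 in control replicate 2 and 38.1 in control replicate 1. Gm2016 had 313 and 131 in the double knockdown, and 138 in control replicate 2 and 52.0 in control replicate 1. Of all annotated genes, Gm2016 shared the most 50-base stretches with the member Gm5662, so its values may not be independent of that member's. The other 3 were B020004J07Rik, Patl2 and Gm13119.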
